A study of Mus musculus with 41 samples.

Results

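The cortex of SAMP8 mice was compared with that of SAMR1 mice at 6 months of age. Members were the libraries labelled as cortex of that age, 4 from SAMP8 and 3 from SAMR1, which are 7 of the 41 libraries of a study of both strains at 2.5, 6 and 9 months. SAMP8 is an inbred line prone to accelerated senescence, and SAMR1 is the senescence-resistant line used as its control. All mice were male, none carried a transgene or had been given a drug according to the labels and the methods, and each of the 7 libraries came from another mouse. The strains are separately bred lines, so a difference of genetic background between them cannot be told apart from a difference in senescence. Whole cortex was taken as bulk tissue. Fewer cells of a type and less RNA per cell therefore cannot be told apart either.

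SAMP8 mice are known for early deficits in learning and memory and serve as a model of brain ageing. The cerebral cortex holds excitatory projection neurons, inhibitory interneurons, astrocytes, microglia, oligodendrocytes and vessel cells, and a piece of cortex can carry adjoining striatum, hippocampus, choroid plexus or basal forebrain with it. Markers of these cells and regions were therefore read in every library.

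Total counts were 1965442 to 33042689 per library, with a median of 3026418, and 17603 to 27766 genes were detected. SAMP8 replicate 1 was the library of 33042689 counts, and the other 6 held at most 5774118. Mitochondrial genes took 3.02% to 4.59% of the counts. Ddx3y, a gene of the Y chromosome, measured 70 to 103 CPM in all 7 libraries. Levels are in CPM, which are counts scaled to 1000000 per library after TMM scaling. Markers of excitatory cortical neurons had a mean log2 CPM of 6.41 to 6.82 in the 7 libraries, with Slc17a7, the vesicular glutamate transporter of these neurons, at 527 to 993 CPM.

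The strain of each library was checked with 38 genes that separated the strains at 2.5 months (FDR ≤ 0.1 and |log2(SAMP8/SAMR1)| ≥ 2). These were chosen on libraries of 2.5 months only, so the 6-month libraries had no part in the choice. The libraries used included SAMP8 cortex replicate 2 of 2.5 months, which held 28861 counts and 5500 genes detected. Of them, 28 were higher and 10 lower in SAMP8 at 2.5 months, 7 lay on chromosome 4, and many were pseudogenes or predicted genes whose reads can be shared with near copies. In the SAMP8 libraries, 34, 32, 28 and 36 of the 38 genes were nearer to the SAMP8 than to the SAMR1 level of 2.5 months in replicates 1 to 4. In the SAMR1 libraries, 4, 35 and 4 were nearer to the SAMP8 level in replicates 1 to 3. The library labelled SAMR1 replicate 2 thus carried SAMP8-type levels of 92.1% of these genes, against 10.5% in both other SAMR1 libraries.

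**Figure D1:**
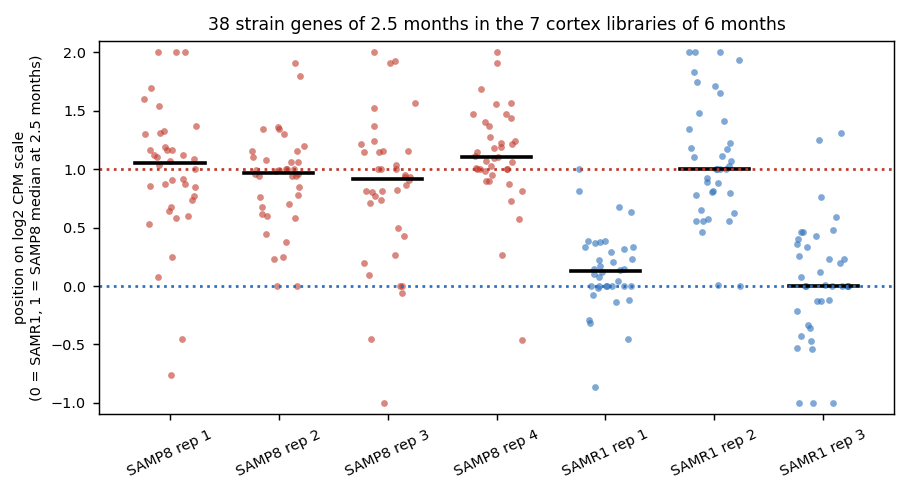
Position of each of 38 strain genes (points) in each library of 6-month cortex, on a log2 CPM scale where 0 is the SAMR1 and 1 the SAMP8 median at 2.5 months; black bars are medians, and points beyond the axis are drawn at its edge. The bar of SAMR1 replicate 2 stands at 1, with the 4 SAMP8 libraries (0.917 to 1.1), while SAMR1 replicates 1 and 3 stand at 0.13 and 0.

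Single strain genes showed the same split. Gm6166, a processed pseudogene, measured 44, 33.3, 20.3 and 34.8 CPM in the SAMP8 libraries and 2.24, 43 and 3.24 CPM in SAMR1 replicates 1, 2 and 3. Vcp-rs, a processed pseudogene related to the ATPase gene Vcp, measured 37.8, 48.2, 44.1 and 75.5 CPM in SAMP8 and 16, 40.2 and 16.2 CPM in SAMR1. P3h2, a collagen prolyl hydroxylase that was lower in SAMP8 at 2.5 months, measured 4.54, 3.73, 5.07 and 2.49 CPM in SAMP8 and 10.8, 4.97 and 12.9 CPM in SAMR1. In each of these, SAMR1 replicate 2 lay inside or next to the SAMP8 range and the other SAMR1 libraries lay outside it. Trim12a, of the tripartite motif family, measured 2.79 to 4.06 CPM in SAMP8 and 0.373, 1.42 and 0 CPM in SAMR1.

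In the fit of all libraries, 33 of the 38 strain genes kept their direction of 2.5 months, with a median log2 change of 1.38 in that direction against 3.4 at 2.5 months, where 49.1% of all genes tested were above 0 and 50.8% below. In that direction, 16 of them (42.1%) had an unadjusted p under 0.05, where 3.39% of all genes tested were higher and 4.34% lower at that level. Without SAMR1 replicate 2, all 38 kept their direction, with a median of 3.06 and 28 (73.7%) at an unadjusted p under 0.05. Over all genes tested, 50.1% were then above 0 and 49.9% below, and 4% were higher and 4.43% lower at that level. SAMR1 replicate 2 was doubted on these same 38 genes. A stronger difference in them without it follows from that choice and is no test of the strain difference. Without SAMR1 replicate 3 instead, 32 kept it, with a median of 1.06, where 52.8% of all genes were above 0 and 47.1% below.

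The region was checked in the same way with 142 genes that separated hippocampus from cortex at 2.5 months (FDR ≤ 0.01, same fold threshold), of which 141 could be read here. In SAMR1 replicate 3, 122 of 141 (86.5%) were nearer to the hippocampal level, against 37.6% and 24.8% in SAMR1 replicates 1 and 2. SAMP8 replicate 2 had 52.5%, and the other SAMP8 libraries 13.5% to 25.5%. Prox1, a transcription factor of dentate granule neurons, measured 104 CPM in SAMR1 replicate 3 and 14.9 to 30.4 CPM in the other 6 libraries. Lct, a gene enriched in the dentate gyrus, measured 28.7 CPM there and 1.38 to 5.69 CPM elsewhere. Results that follow are given with all 7 libraries under their labels and, where they moved, without SAMR1 replicate 2, without replicate 3, or without both.

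Across 17039 genes tested, 1 gene differed between SAMP8 and SAMR1 cortex (0.00587% of genes tested). A gene was called where edgeR's quasi-likelihood test gave FDR ≤ 0.1 and |log2(SAMP8/SAMR1)| ≥ 1. That gene was AC153155.1, a long intergenic noncoding RNA of chromosome 18, which fell in SAMP8. It (ENSMUSG00000117713) measured 1.75, 0.466, 1.01 and 0.829 CPM in SAMP8 and 23.5, 3.91 and 26.4 CPM in SAMR1 replicates 1 to 3. All SAMP8 libraries lay below all SAMR1 libraries, and SAMR1 replicate 2 was the SAMR1 library nearest to SAMP8. Means were 1.01 ± 0.54 CPM (SD, n = 4) and 17.9 ± 12.2 CPM (n = 3). The log2(SAMP8/SAMR1) was -3.86 (SE 0.55, adjusted p = 0.000144), and -4.33 without SAMR1 replicate 2 and -3.51 without replicate 3, called in both. It is one of the 38 strain genes, with a log2 fold change of -4.44 at 2.5 months.

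None was called higher (0%). At an unadjusted p under 0.05, 577 genes (3.39%) were higher and 740 (4.34%) lower in SAMP8. Without SAMR1 replicate 2, edgeR called 20 genes (0.117%), 8 higher (0.047%) and 12 lower (0.0704%). Leaving out replicate 3 gave 1 call. Leaving out both gave 8 (0.047%), 1 higher (0.00587%) and 7 lower (0.0411%), and SAMR1 was then 1 library, whose spread was taken to be that of the other groups. DESeq2 called 47 genes with all libraries (0.333% of 14102 with an adjusted p), 17 higher (0.121%) and 30 lower (0.213%), and shared 12 with the 20 calls of edgeR without SAMR1 replicate 2. With mouse as block, limma voom called 101 genes, 28 higher and 73 lower. Dropping the 8 libraries of the series under 1000000 counts gave 61 calls with edgeR, though 0 of these 8 were among the 7 compared. Leaving out SAMP8 replicate 2 gave 32 calls. Its choroid plexus genes had a mean log2 CPM of 6.00, and 52.5% of its region genes were nearer to the hippocampal level. Both were higher in SAMR1 replicate 3, at 6.77 and 86.5%.

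**Figure D2:**
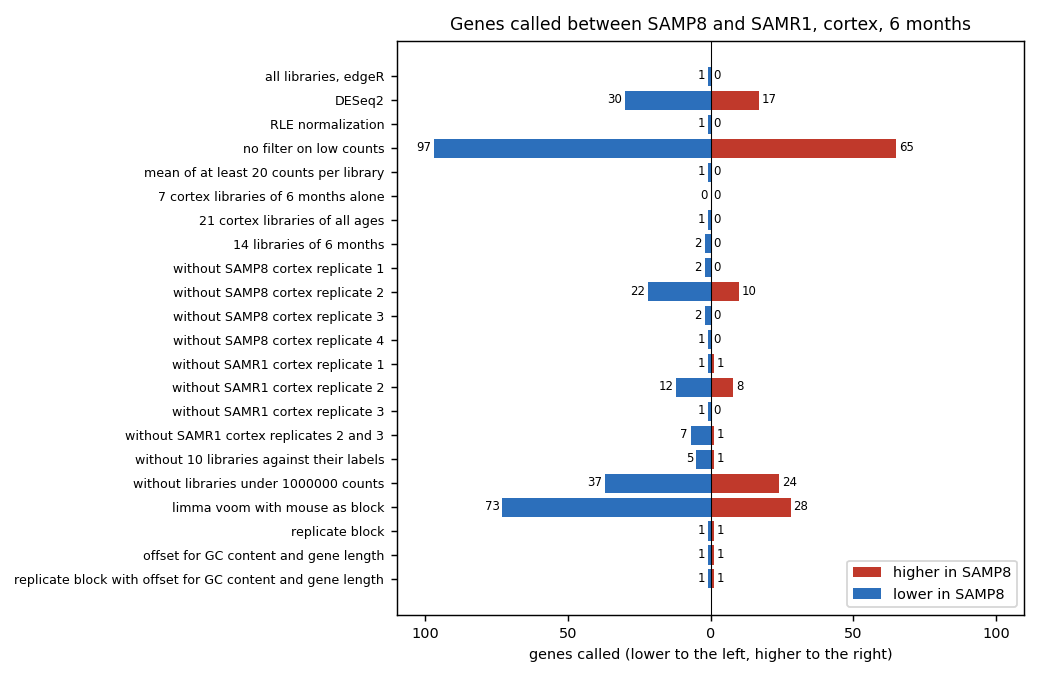
Number of genes called lower (left bars) and higher (right bars) in SAMP8 than in SAMR1 cortex at 6 months under each setting. With all libraries edgeR called 0 higher and 1 lower, DESeq2 17 and 30, and edgeR without SAMR1 replicate 2 called 8 and 12.

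Several genes with the smallest p that did not pass when all libraries were kept passed without SAMR1 replicate 2. Ranbp9, a scaffold protein of the CTLH ubiquitin ligase complex (ENSMUSG00000038546, chromosome 13, 43402675 to 43481282, GRCm38), measured 196, 173, 309 and 218 CPM in SAMP8 and 83.7, 185 and 81.8 CPM in SAMR1. SAMR1 replicate 2 lay inside the SAMP8 range. Its log2 fold change was 0.94 (SE 0.23, adjusted p = 0.174 from edgeR) with all libraries and 1.44 (SE 0.25, adjusted p = 0.00299) without SAMR1 replicate 2.

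Dctn3, a subunit of dynactin, the cofactor of the motor dynein, measured 127, 179, 135 and 205 CPM in SAMP8 and 67.3, 117 and 31.4 CPM in SAMR1, without overlap. Its log2 fold change was 1.16 (SE 0.30, adjusted p = 0.174 from edgeR), and 1.69 (adjusted p = 0.0125) without SAMR1 replicate 2. Camk1, a calcium/calmodulin-dependent kinase, measured 75 to 99.1 CPM in SAMP8 and 38.4, 68.2 and 32.4 CPM in SAMR1, with adjusted p = 0.174 from edgeR and 0.0107 without replicate 2. Invs, the gene of inversin, a protein of the primary cilium, and Sv2b, a synaptic vesicle glycoprotein, were called higher without SAMR1 replicate 2 as well, with log2 fold changes of 1.5 and 1.08. In both, SAMR1 replicate 2 (27 CPM of Invs, 914 CPM of Sv2b) lay inside the SAMP8 range. The 3 other genes called higher in that fit were Gm6166, Gm6356 and Gm13306, which are among the 38 strain genes on which replicate 2 was doubted.

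Of the genes lower in SAMP8, Panx2, a channel protein of neurons (ENSMUSG00000058441, chromosome 15, 89059734 to 89073567), measured 25.5, 27.9, 15.2 and 30.7 CPM in SAMP8 and 68.6, 52.2 and 86 CPM in SAMR1. All SAMP8 libraries lay below all SAMR1 libraries, and log2(SAMP8/SAMR1) was -1.46 (SE 0.33, adjusted p = 0.165 from edgeR), or -1.61 (adjusted p = 0.049) without SAMR1 replicate 2. Whrn, the scaffold protein whirlin of hair cell stereocilia and photoreceptors, measured 4.06 to 13.5 CPM in SAMP8 and 35.4, 17.1 and 41.1 CPM in SAMR1, and was called without replicate 2 (-1.99, adjusted p = 0.0259). Mnt, a repressor that pairs with Max, measured 12.4 to 20.5 CPM in SAMP8 and 32 to 44 CPM in SAMR1. Its log2 fold change was -1.20 (SE 0.28, adjusted p = 0.174), and -1.31 (adjusted p = 0.0907) without replicate 2. Rasd1, a Ras-like protein induced by glucocorticoids, Doc2b, a calcium sensor of vesicle release, and Prag1, a pseudokinase, were also called lower in that fit. SAMR1 replicate 2 lay inside the SAMP8 range for Rasd1 (4.26 CPM) and Doc2b (9.95 CPM). Gm47283 and Gm10524 were called lower as well. Like AC153155.1, they are among the 38 strain genes on which replicate 2 was doubted, which made up 6 of the 20 calls.

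Zfhx3, a homeobox transcription factor, was called lower without SAMR1 replicate 2 (-2.11, adjusted p = 0.0424 from edgeR). Its log2 fold change was -2.76 without replicates 2 and 3, where replicate 1 was the only SAMR1 library left. It measured 13.1, 21, 12.2 and 14.5 CPM in SAMP8 and 104, 26.3 and 26.8 CPM in SAMR1, so that the size of the difference rested on SAMR1 replicate 1. Without that library the groups still did not overlap, but the log2 fold change was -0.80 and did not pass (adjusted p = 0.657 from edgeR). Gm28439 was called lower without SAMR1 replicate 2 as well, and measured 20.9 to 39.8 CPM in SAMP8 and 134, 42.3 and 49 CPM in SAMR1. Without SAMR1 replicate 1 its log2 fold change was -0.72 and did not pass (adjusted p = 0.615 from edgeR).

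Gli2, a transcription factor at the end of hedgehog signaling, measured 2.42, 2.33, 2.03 and 0.829 CPM in SAMP8 and 4.1, 8.53 and 14.8 CPM in SAMR1. All SAMP8 libraries were below all SAMR1 libraries, with the highest level in the SAMR1 library of hippocampal profile. The log2(SAMP8/SAMR1) of -2.13 (SE 0.50, edgeR adjusted p = 0.174) became -1.02 without both SAMR1 replicates 2 and 3. Of the hedgehog list, Gli2 included, 15 genes were tested and 5 had a log2 fold change above 0. At an unadjusted p under 0.05, 5 were lower, where 4.34% of all genes tested were. The median was -0.25 against -0.01 over all genes tested, and none of the 15 was called by edgeR. DESeq2 called 1 of them lower, Gli2. The median of this list was -0.51 without SAMR1 replicate 2 and -0.04 without replicate 3.

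**Figure D3:**
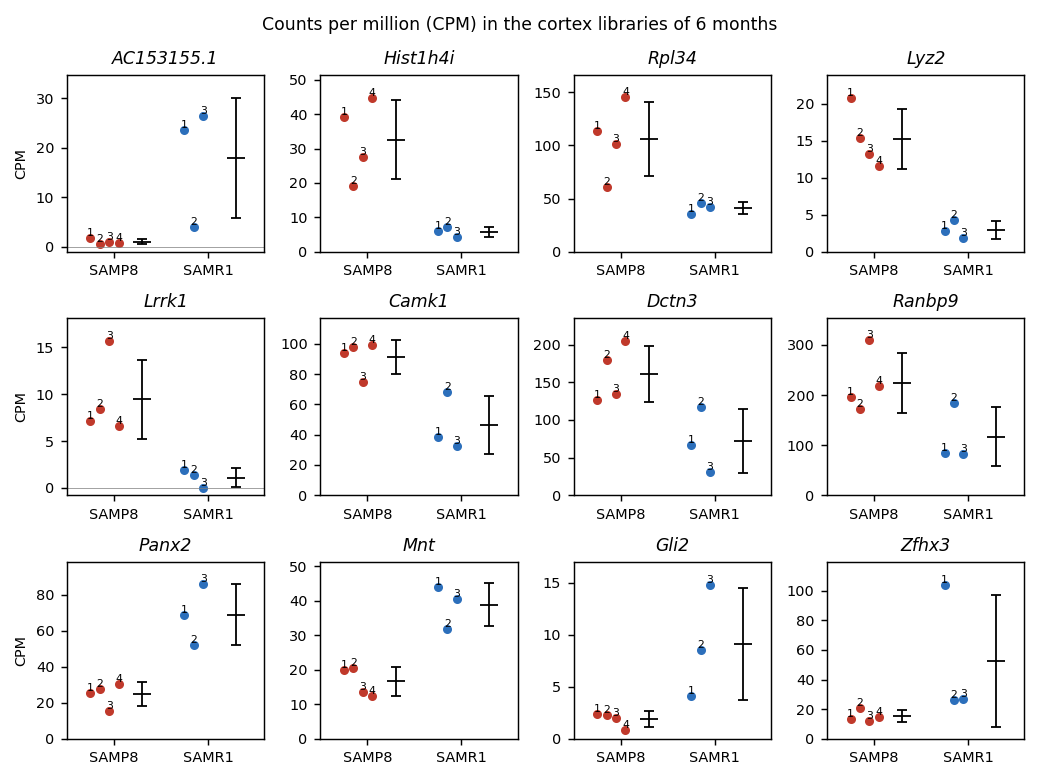
CPM of 12 genes in each library (points, numbered by replicate) with mean ± SD for SAMP8 (red, n = 4) and SAMR1 (blue, n = 3). SAMR1 replicate 2 is the SAMR1 library nearest to SAMP8 for AC153155.1, Camk1, Dctn3 and Ranbp9, and replicate 1 alone carries the high level of Zfhx3 (104 CPM).

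Genes of replication-dependent histones, which supply new chromatin and whose mRNAs end in a stem-loop in place of a poly(A) tail, were higher in SAMP8 in most cases. Of 67 genes in the list, 46 passed the filter on low counts, 41 of these had a log2 fold change above 0, and the median was 0.99 against -0.01 over all genes tested. At an unadjusted p under 0.05, 18 were higher and 0 lower, where 3.39% and 4.34% of all genes tested were, and 0 were called by edgeR. SAMP8 and SAMR1 libraries did not overlap for 16 genes higher in SAMP8 and 1 lower, where this held for 3.82% and 3.49% of all genes tested. Hist1h4i, a histone H4 gene also named H4c9 (ENSMUSG00000060639, chromosome 13, 22040636 to 22041362, GRCm38), measured 39.2, 19.1, 27.4 and 44.8 CPM in SAMP8 and 5.97, 7.11 and 4.16 CPM in SAMR1. The lowest SAMP8 library was well above the highest SAMR1 library. Means were 32.6 ± 11.6 CPM and 5.74 ± 1.49 CPM, and the log2 fold change was 2.49 (SE 0.54, adjusted p = 0.165 from edgeR, 0.0361 from DESeq2).

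Hist1h4c, another H4 gene, measured 28.6, 29.1, 73.5 and 129 CPM in SAMP8 and 19.4, 10.3 and 7.4 CPM in SAMR1. Hist1h3f, a histone H3 gene, measured 5.14, 7.45, 9.12 and 20.7 CPM in SAMP8 and 1.49, 2.13 and 2.77 CPM in SAMR1. DESeq2 called these 3 histone genes higher. The mean log2 CPM of the list was 2.95, 3.14, 3.06 and 3.92 in SAMP8 replicates 1 to 4 and 2.54, 2.28 and 2.07 in SAMR1. SAMP8 replicate 4 stood highest, and without it the median was 0.78 and 8 genes were higher at an unadjusted p under 0.05, where 2.59% of all genes were. Without SAMR1 replicate 2, replicate 3 or both, the median was 1.06, 0.84 and 0.91, and without both 5 genes were higher at that level, where 1.94% of all genes were higher and 3.1% lower.

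The sequences before the start sites of the 2 H4 genes are shown because the histone genes lay on the same side together. They are the 100 bases upstream in RefSeq (build GRCm38.p6, which is from the reference strain and neither SAMP8 nor SAMR1), both on the minus strand of chromosome 13, at chr13:22041363-22041462 for Hist1h4i and chr13:23698459-23698558 for Hist1h4c. Capitals mark matches to TATAA or CCAAT on either strand.
Hist1h4i: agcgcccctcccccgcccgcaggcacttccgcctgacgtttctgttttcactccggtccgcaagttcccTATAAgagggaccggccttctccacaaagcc
Hist1h4c: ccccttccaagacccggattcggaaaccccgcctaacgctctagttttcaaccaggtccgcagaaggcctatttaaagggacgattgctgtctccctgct
Hist1h4i held 1 match and Hist1h4c held none in this window. Of the 46 histone genes tested, 42 were matched to 43 such promoters, of which 51.2% held TATAA and 76.7% held CCAAT, against 10.2% and 18.9% of all 32851 promoters in the table. A match is a description of letters only.

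Cytosolic ribosomal protein genes, the protein part of the translating ribosome, were also mostly higher in SAMP8. Of 79 tested, 72 had a log2 fold change above 0, with a median of 0.50. At an unadjusted p under 0.05, 24 were higher and 0 lower, where 3.39% and 4.34% of all genes tested were. Rpl34 measured 114, 61, 101 and 146 CPM in SAMP8 and 35, 46.2 and 41.6 CPM in SAMR1. All SAMP8 libraries were above all SAMR1 libraries, and the log2 fold change was 1.37 (SE 0.33, adjusted p = 0.174 from edgeR, 0.0607 from DESeq2). Rpl22l1, a paralog of Rpl22, measured 34.5 to 94.9 CPM in SAMP8 and 11.1 to 32.7 CPM in SAMR1, and Rps7 138 to 265 CPM and 96.2 to 105 CPM. Pseudogene copies of ribosomal protein genes are many, so reads of this list may be shared with them. The mean log2 CPM of the list was 7.28 in SAMP8 replicate 4 and 6.57, 6.71 and 6.70 in the other SAMP8 libraries, against 6.54, 6.33 and 6.28 in SAMR1. Without SAMP8 replicate 4 the median was 0.34 and 11 genes were higher at an unadjusted p under 0.05, where 2.59% of all genes were. Without SAMR1 replicate 2 or 3 the median was 0.43 or 0.44, with 17 higher in each case, where 4% and 3.16% of all genes were. Without both the median was 0.40.

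Nuclear genes of the respiratory chain had a smaller shift, with 64 of 83 above 0 and a median of 0.26. At an unadjusted p under 0.05, 9 of the 83 were higher and 0 lower, where 3.39% and 4.34% of all genes tested were. Without SAMR1 replicate 3 the median was 0.16, with 3 of 83 higher at that level, near the 3.16% of all genes tested. Without replicates 2 and 3 the median was 0.14, and without SAMP8 replicate 4 it was 0.14 with 50 of 83 above 0. Ndufa4, a subunit of cytochrome c oxidase, measured 225, 161, 197 and 354 CPM in SAMP8 and 130, 99.8 and 85.5 CPM in SAMR1, without overlap (log2 fold change 1.15, SE 0.30, adjusted p = 0.215 from edgeR). The 13 mitochondrial-encoded protein genes had a median of -0.32, which was 0.02 without SAMR1 replicate 1. Tomm22, of the mitochondrial import pore, measured 36 to 68.8 CPM in SAMP8 and 14.3 to 26.3 CPM in SAMR1. Mrpl14, of the mitochondrial ribosome, measured 25.3 to 54.7 CPM and 9.25 to 17.1 CPM. Neither passed with edgeR, and DESeq2 called both higher.

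Histone and DNA modifiers, enzymes that write or erase chromatin marks, lay on the other side. Of 56 tested, 13 were above 0 and the median was -0.24. At an unadjusted p under 0.05, 0 were higher and 9 lower, where 3.39% and 4.34% of all genes tested were. Libraries of the strains did not overlap for 13 genes lower in SAMP8 and 0 higher, where this held for 3.49% and 3.82% of all genes tested. Kdm6b, a demethylase of histone H3, measured 8, 13.7, 8.11 and 4.15 CPM in SAMP8 and 24, 17.4 and 22.2 CPM in SAMR1 (log2 fold change -1.30, SE 0.36, adjusted p = 0.215 from edgeR, 0.0916 from DESeq2). Kmt2a, a methyltransferase of histone H3, measured 132 to 191 CPM in SAMP8 and 251 to 314 CPM in SAMR1, and Setd1b 17.2 to 32.4 and 40.2 to 69 CPM. Both had every SAMP8 library below every SAMR1 library. The median of the list was between -0.30 and -0.22 when SAMR1 replicate 1, 2, 3 or both 2 and 3 were left out.

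Zfhx2, a homeobox gene related to Zfhx3, measured 24.2, 50.1, 29.9 and 23.2 CPM in SAMP8 and 61.1, 76 and 93.4 CPM in SAMR1. Ppp1r1a, an inhibitor of protein phosphatase 1, measured 33.9 to 78.9 CPM in SAMP8 and 92 to 111 CPM in SAMR1. Lrrk1, a kinase related to Lrrk2, was on the higher side with 7.11, 8.38, 15.7 and 6.63 CPM in SAMP8 and 1.86, 1.42 and 0 CPM in SAMR1. None of these 3 passed with edgeR, where the adjusted p were 0.165 to 0.215, and DESeq2 called all 3. Rangrf had 0 counts in the 3 SAMR1 libraries and 32, 8, 2 and 14 in SAMP8 replicates 1 to 4. The mean of its levels over the SAMP8 libraries was 8.66 times a floor of 3 counts over the SAMR1 group. Much of that mean came from SAMP8 replicate 4, at 5.8 CPM against 1.01 to 1.86 CPM in the other SAMP8 libraries. Rangrf did not pass (adjusted p = 0.165 from edgeR).

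Immediate early genes, which neurons transcribe within minutes of activity, had a median of -0.41, with 5 of 29 above 0. At an unadjusted p under 0.05, 12 were lower and 0 higher, where 4.34% and 3.39% of all genes tested were. Egr1 measured 51.3, 85.9, 48.7 and 81.3 CPM in SAMP8 and 122, 359 and 95.2 CPM in SAMR1, and Egr2 0 to 1.4 CPM in SAMP8 and 2.61, 17.1 and 1.85 CPM in SAMR1. SAMR1 replicate 2, the library with SAMP8-type strain genes, held the highest level of both and the highest mean of the list (4.87, against 3.69 to 4.23). Without it the median of the list was -0.12, with 5 genes lower and 1 higher at that p, where 4.43% and 4% of all genes tested were. Without replicates 2 and 3 the median was 0.01.

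**Figure D4:**
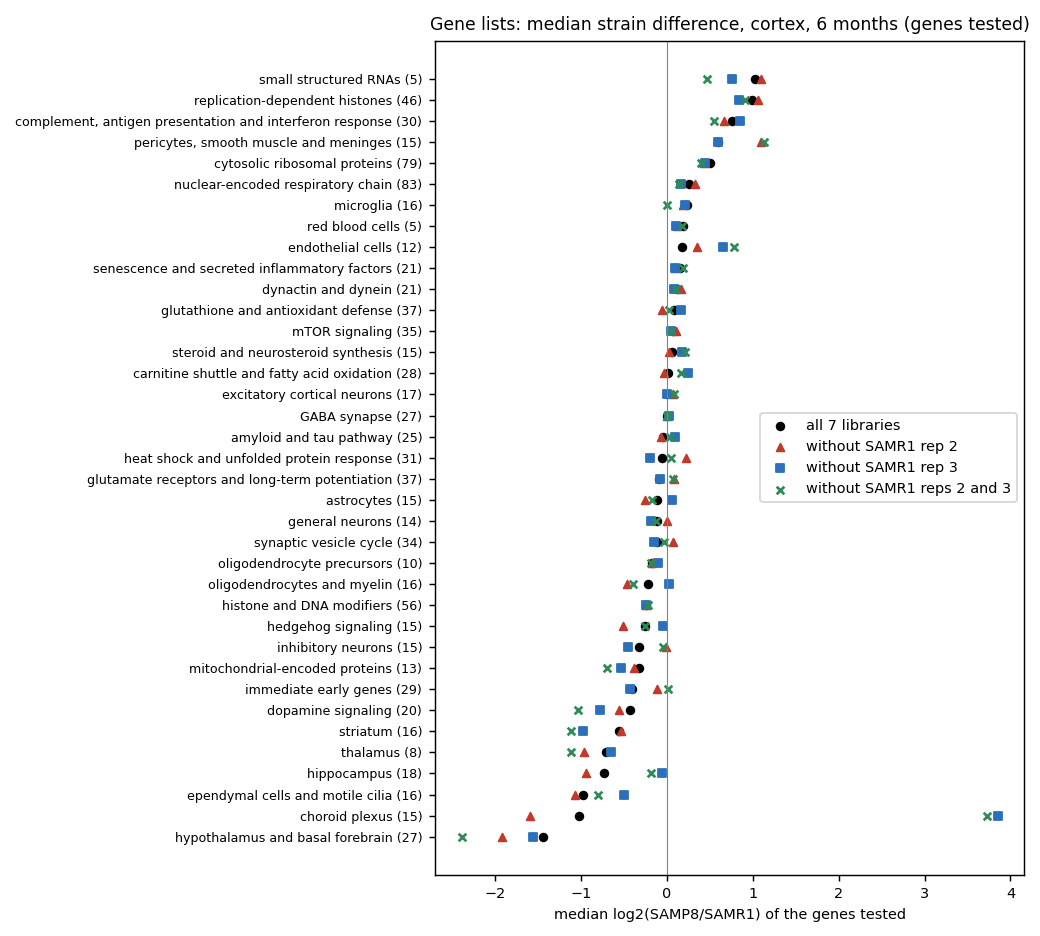
Median log2(SAMP8/SAMR1) of each gene list with all 7 libraries (circles), without SAMR1 replicate 2 (triangles), replicate 3 (squares) or both (crosses); genes tested are in brackets. Replication-dependent histones stay between 0.84 and 1.06, while choroid plexus genes go from -1.02 to 3.85 without SAMR1 replicate 3.

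Markers of other regions moved with single libraries. Choroid plexus genes, of the tissue that secretes cerebrospinal fluid, had a mean log2 CPM of 6.77 in SAMR1 replicate 3 and 6.00 in SAMP8 replicate 2 against 0.25 to 1.32 in the other 5 libraries. Ttr, transthyretin, measured 7350 and 4390 CPM in these libraries and 4.97 to 27.2 CPM in the others. All 15 choroid plexus genes had a log2 fold change below 0, with a median of -1.02, which was 3.85 without SAMR1 replicate 3 and -5.18 without SAMP8 replicate 2. The 18 hippocampal genes had a median of -0.73 with 7 lower at an unadjusted p under 0.05, and without SAMR1 replicate 3 the median was -0.06 with 0 lower at that level, where 4.15% of all genes were lower and 3.16% higher. Genes of ependymal cells and motile cilia had a median of -0.98, and -0.50 without SAMR1 replicate 3. Dnah9, a dynein of motile cilia called lower without SAMR1 replicate 2, measured 71.7 CPM in SAMR1 replicate 3 and 4.62 to 15.6 CPM in the other 6 libraries.

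SAMR1 replicate 1 stood apart in other ways. Its striatal genes had a mean log2 CPM of 6.38 against 3.41 to 5.82 elsewhere, and its thalamic genes 5.11 against 3.54 to 4.78. Penk, the enkephalin precursor of striatal neurons, measured 622 CPM there, 279 and 11.1 CPM in SAMR1 replicates 2 and 3, and 30.9 to 244 CPM in SAMP8. In a list of hypothalamic and basal forebrain genes that was written after the values were seen, its mean was 3.55 against 0.46 to 1.32 in the other 6 libraries. Avp, the vasopressin gene, measured 108 CPM there and 0 to 0.711 CPM in the other 6. Avp, Irs4 and Dgkk were called lower in SAMP8 without SAMR1 replicates 2 and 3, where replicate 1 was the only SAMR1 library left. The part of these regional genes in the other differences was not tested. Without replicate 1, the median of the striatal list went from -0.56 to 0.30 and that of dopamine signaling genes from -0.43 to 0.18.

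**Figure D5:**
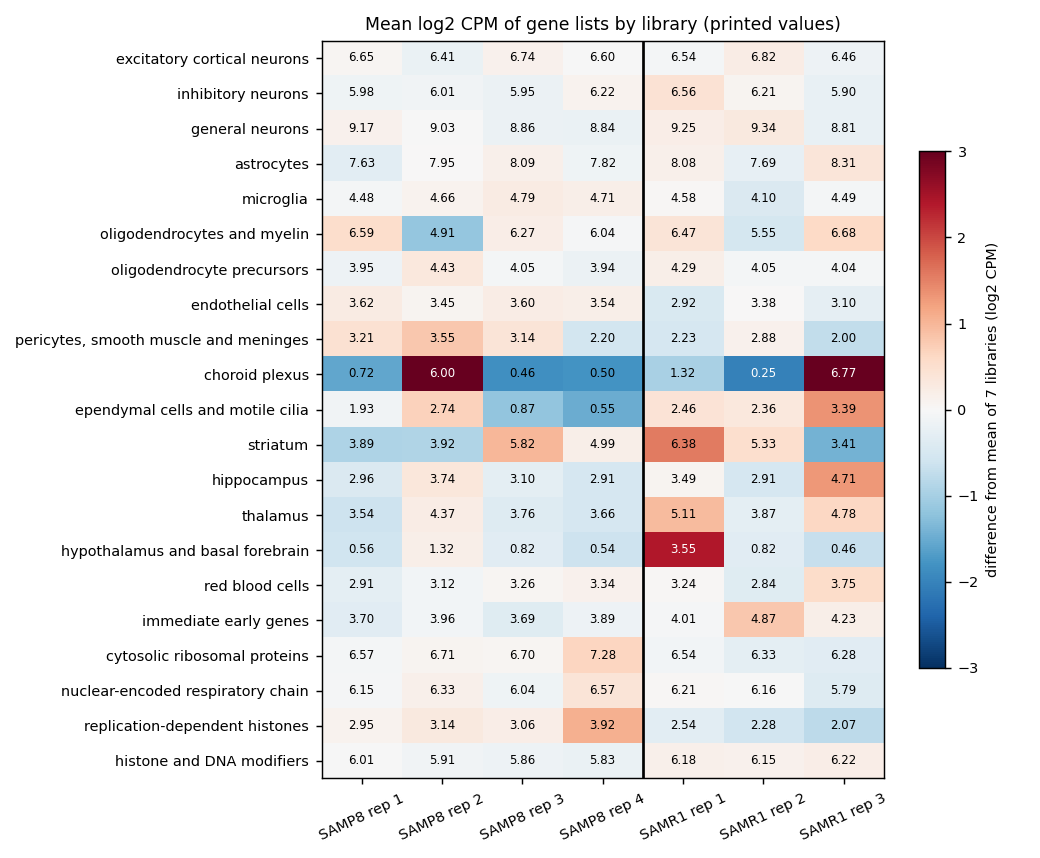
Mean log2 CPM of 21 gene lists in each library (printed), coloured by the difference from the mean over the 7 libraries. Choroid plexus genes are at 6.00 in SAMP8 replicate 2 and 6.77 in SAMR1 replicate 3, hippocampal genes at 4.71 in SAMR1 replicate 3, and hypothalamic genes at 3.55 in SAMR1 replicate 1.

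Among the cell types of the cortex, no list had a member called by edgeR with all libraries. As that fit called 1 of 17039 genes tested (0.00587%), this does not show that the cell types were alike. Medians were 0 for excitatory neurons (17 genes), -0.12 for general neuronal genes (14), -0.32 for inhibitory neurons (15), -0.11 for astrocytes (15) and -0.22 for oligodendrocytes and myelin (16), against -0.01 over all genes tested. Leaving out SAMR1 replicate 2, the median of inhibitory neurons was -0.01, that of astrocytes -0.26 and that of oligodendrocytes -0.46, and without replicate 3 they were -0.45, 0.06 and 0.03. Microglia had a median of 0.23, with 12 of 16 above 0 and 2 higher at an unadjusted p under 0.05, where 3.39% of all genes were. None was higher at that level without SAMR1 replicate 2, and without replicates 2 and 3 the median was 0 with 8 of 16 above 0. Aif1, the microglial protein IBA1, measured 14.4, 9.55, 11.7 and 10.8 CPM in SAMP8 and 7.83, 6.4 and 7.4 CPM in SAMR1. The groups did not overlap, and the difference did not pass (log2 fold change 0.69, SE 0.39, adjusted p = 0.70 from edgeR). Gfap, of the astrocyte cytoskeleton, measured 195 to 568 CPM in SAMP8 and 253 to 722 CPM in SAMR1, and Rbfox3, the neuronal antigen NeuN, 181 to 233 and 236 to 377 CPM. Lyz2, a lysozyme of myeloid cells, measured 20.8, 15.4, 13.2 and 11.6 CPM in SAMP8 and 2.8, 4.26 and 1.85 CPM in SAMR1 (log2 fold change 2.36, SE 0.60, adjusted p = 0.174 from edgeR, 0.0764 from DESeq2).

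Genes of complement, antigen presentation and the interferon response had 25 of 30 above 0 and a median of 0.76. At an unadjusted p under 0.05, 4 were higher and 1 lower, where 3.39% and 4.34% of all genes tested were. Ifit3, an interferon-induced gene, measured 22.7, 15.1, 11.2 and 9.53 CPM in SAMP8 and 7.08, 6.4 and 4.16 CPM in SAMR1, without overlap, and did not pass (adjusted p = 0.545 from edgeR). The median stayed between 0.55 and 0.86 without SAMR1 replicate 1, 2, 3, both 2 and 3, SAMP8 replicate 2 or SAMP8 replicate 4, and 1 gene was higher at that p without SAMR1 replicate 3. Genes of pericytes, smooth muscle and meninges had 12 of 15 above 0 and a median of 0.59, and 1.1 without SAMR1 replicate 2. Genes of endothelial cells had 7 of 12 above 0 and a median of 0.18. That median was -0.01 without SAMR1 replicate 1, 0.35 without replicate 2 and 0.65 without replicate 3. Of this list, Abcb1a, the P-glycoprotein pump of brain endothelium, measured 16.2 to 28.6 CPM in SAMP8 and 4.47, 15.3 and 6.01 CPM in SAMR1. It did not pass (adjusted p = 0.346 from edgeR).

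Of other lists of neuronal signaling and ageing, medians were -0.09 for glutamate receptors and long-term potentiation (37 genes), 0 for the GABA synapse (27), -0.12 for the synaptic vesicle cycle (34), 0.07 for mTOR signaling (35), -0.05 for the amyloid and tau pathway (25) and 0.15 for senescence and secreted inflammatory factors (21). Shank1, a scaffold of the excitatory synapse, measured 334, 430, 165 and 163 CPM in SAMP8 and 590, 527 and 566 CPM in SAMR1. Kcnc1, a potassium channel of fast-spiking interneurons, measured 85 to 98.5 CPM in SAMP8 and 139 to 159 CPM in SAMR1 (log2 fold change -0.72, SE 0.20, adjusted p = 0.224 from edgeR). Atp6v1a, of the proton pump that acidifies vesicles, measured 609 to 735 CPM in SAMP8 and 364 to 490 CPM in SAMR1. None of these 3 overlapped between strains, which held for 3.82% of all genes tested higher and 3.49% lower in SAMP8, and none passed. They were named for a small p within their lists. Atp6v1a was higher in SAMP8, while 22 of the 34 genes of the synaptic vesicle cycle were below 0. Tent2, a cytoplasmic poly(A) polymerase, measured 20.7 to 26.9 CPM in SAMP8 and 11.2 to 19 CPM in SAMR1, with adjusted p = 0.539 from edgeR.

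Dctn3 lies on chromosome 4 (41714798 to 41723170, GRCm38), on which 7 strain genes lie. Within 1000000 bases on either side, a window chosen after values were seen and holding 5 of those 7, 32 genes were tested. At an unadjusted p under 0.05, 8 were higher and 2 lower, where 3.39% and 4.34% of all genes tested were, and 0 were called by edgeR. The higher genes include Dctn3, on which the window was centred, and the strain genes Gm12407, Gm20878 and Gm13306. As these were picked for their difference, the counts are no separate evidence for the window. DESeq2 called Dctn3. Without SAMR1 replicate 2, 12 were higher and 1 lower, where 4% and 4.43% of all genes tested were. The neighbour Rpp25l, a gene related to subunits of ribonuclease P, measured 16.3, 21.9, 18.2 and 34.8 CPM in SAMP8 and 7.08, 6.4 and 9.71 CPM in SAMR1. Here SAMR1 replicate 2 stayed with the other SAMR1 libraries. Gm13306 measured 28.7, 14.9, 7.1 and 24 CPM in SAMP8 and 0.932, 16.7 and 0 CPM in SAMR1, and Gm20878 4.89 to 29.9 CPM and 0, 7.82 and 0.925 CPM. In these predicted genes SAMR1 replicate 2 was inside the SAMP8 range. The median over the 32 genes was 0.15.

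Whether the strain difference in cortex changed with age was tested as an interaction of 6 against 2.5 months. edgeR called 0 of 17039 genes (0%) in either direction, while 1072 (6.29%) had an unadjusted p under 0.05. DESeq2 called 3. With mouse as block, limma voom called 124, of which 8 were higher and 116 lower, so the number of calls depended on the method. The libraries compared included SAMP8 cortex replicate 2 of 2.5 months, which held 28861 counts, and the doubted SAMR1 replicate 2 of 6 months. With edgeR, 0 genes were called without the libraries under 1000000 counts, and 0 without SAMR1 replicate 2. The log2 difference between ages was 3.95 for Lrrk1 (edgeR adjusted p = 0.301), -1.54 for Gli2 (0.787), 1.16 for Hist1h4i (0.907), -0.50 for Ranbp9 (0.909) and -0.46 for Dctn3 (0.962). None of these passed with edgeR. Without SAMR1 replicate 3 edgeR called 16, of which 1 was higher and 15 lower.

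Whether it differed from that in hippocampus was tested as an interaction at 6 months. edgeR called 5 genes (0.0293%), and 1726 (10.1%) had an unadjusted p under 0.05. The log2(SAMP8/SAMR1) was higher in cortex for Bmp1, Mospd2, Bloc1s1 and Taco1 (0.0235%) and lower for mt-Td, a mitochondrial tRNA (0.00587%). In cortex, Bmp1, a procollagen protease, measured 24.3, 19.1, 25.3 and 21.1 CPM in SAMP8 and 11.7, 15.6 and 21.7 CPM in SAMR1. In hippocampus it had 0 counts in the 3 SAMP8 libraries and 24, 22, 125 and 9 counts in the 4 SAMR1 libraries. These SAMP8 hippocampus libraries held 217457 to 418346 counts in all, the shallowest group of that age. Bloc1s1, of the complex that forms lysosome-related organelles, measured 14.7 to 31.3 CPM in SAMP8 and 6.93 to 9.51 CPM in SAMR1 cortex, and 0, 2 and 0 counts in SAMP8 hippocampus. mt-Td measured 1.01 to 3.39 CPM in SAMP8 cortex and 19.8, 22 and 4.16 CPM in SAMR1 cortex. Without SAMR1 cortex replicate 2, edgeR called 2 genes, of which Bmp1 (adjusted p = 0.0141) was the 1 shared with these 5. Some mice gave both a cortex and a hippocampus library, which this fit does not model, and limma voom with mouse as block called 0 (1531 genes had an unadjusted p under 0.05).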

How the data were processed

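RNA was extracted from whole cortex or hippocampus, depleted of ribosomal RNA and sequenced with unique molecular identifiers. The authors trimmed reads with cutadapt, aligned them with STAR, removed duplicates and counted reads per gene with featureCounts, and the deposited values are raw counts. No versions of these tools were stated. Of 55359 gene identifiers, 52083 (94.1%) matched GENCODE M21 (GRCm38), which gave symbols and positions.

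Groups followed the titles. Counts were filtered with filterByExpr over 12 groups of strain, age and region in all 41 libraries, scaled by TMM and tested with edgeR 4.0.16 (R 4.3.3) by its quasi-likelihood test with Benjamini-Hochberg adjustment, with 29 residual degrees of freedom. Libraries were treated as replicates. The spread behind the p-values was estimated over the libraries of all 12 groups, not over the 7 compared libraries alone. In a fit of those 7 alone, edgeR called 0 genes. Means are given ± SD. DESeq2 1.42.0 and limma 3.58.1 were alternatives. Log2 CPM used a prior count of 2. The test was checked on simulated counts. Of pairs of libraries within a group, none agreed within sampling noise (lowest chi-square per degree of freedom 9.51). Intervals and floors cover counting error only.

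The members and the gene lists were chosen with earlier results of these data known. Genes named in the text were taken by p: up to 15 per direction with official symbols and at least 1 CPM in a strain, up to 10 per direction in each fit without doubted libraries, up to 5 per direction and interaction, up to 12 strain genes, up to 4 per list and 11 fixed genes. Pseudogenes and predicted genes, Ttr, Penk, the neighbours of Dctn3 and the list of hypothalamic genes were chosen after their values were seen. A further gene that met this rule is not reported here.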

Additional observations from a re-analysis of the deposited data

Results flagged for a closer look

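Choroid plexus genes had a mean log2 CPM of 6.00 in SAMP8 replicate 2, farther from the other 3 SAMP8 libraries than Dixon's critical value for 4 samples allows. By the same criterion, hedgehog signaling genes stood apart at 3.53 in SAMP8 replicate 2 and glutathione and antioxidant genes at 4.63 in SAMP8 replicate 1. So did Avp at 0.466 CPM (2 counts) in SAMP8 replicate 2 and Gm47283 at 1.71 CPM (46 counts) in SAMP8 replicate 1. The deeper SAMP8 replicate 1 also had 2 counts of Avp, so that value lies at the floor of detection. Chance alone marks about 1 in 20 groups in this way.

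The strain difference of 5 genes differed between cortex and hippocampus at 6 months by edgeR's interaction test. The adjusted p was 0.00592 for Bmp1, 0.0459 for Mospd2, Bloc1s1 and mt-Td, and 0.093 for Taco1. With mouse as block, limma voom called 0 genes in this interaction. Bmp1 and Taco1 had 0 counts in the 3 SAMP8 hippocampus libraries, and Mospd2 and Bloc1s1 0, 2 and 0. The part of the depth of those libraries in these results was not tested.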

How the results depend on the processing

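Genes called between SAMP8 and SAMR1 cortex numbered 1 with all libraries, 47 with DESeq2, 162 with no filter on low counts, 0 in the 7 libraries alone (a fit with fewer samples), 2 in the 14 libraries of 6 months, 8 without SAMR1 replicates 2 and 3, 6 without 10 libraries of doubtful strain or region, 61 when shallow libraries (fewer than 1000000 counts) were dropped, 101 with limma voom and mouse as block, and 2 with the offset for GC content and length. The shallow libraries dropped were all outside the 7 compared, and entered the fit only through the scaling and the shared spread. Leaving out 1 library gave 1 to 32, with 32 without SAMP8 replicate 2 and 20 without SAMR1 replicate 2. Calls between ages numbered 0, against 3 with DESeq2, 142 with no filter, 1 without SAMR1 replicates 2 and 3, 1 without the 10 libraries, 124 with limma voom, and 0 to 16 with 1 library left out (16 without SAMR1 replicate 3). Calls between regions numbered 5, against 23 with DESeq2, 197 with no filter, 3 without SAMR1 replicates 2 and 3, 2 without the 10 libraries, 0 with limma voom, 81 with the GC and length offset, and 2 to 15 with 1 library left out (8 without SAMP8 replicate 1, 3 without SAMP8 replicate 3, 2 without SAMR1 replicate 2, 15 without SAMR1 replicate 3). The replicate number as a block gave 2 calls for strain, 1 between ages and 9 between regions, and 2 and 66 for strain and regions with the offset added. Same-numbered libraries deviated together with r of 0.177, 0.009 and 0.028, so the numbers were not taken as pairs. Strain genes of 2.5 months numbered 38, and 64 at |log2(SAMP8/SAMR1)| ≥ 1, 61 with DESeq2 and 154 with no filter. The region genes of 2.5 months numbered 142, and 319 at |log2 fold change| ≥ 1. The cause of these moves was not tested. Of the fold changes of named genes, 7 changed sign. With 1 library left out, Dnah9 ranged from -1.93 to 0.18 (0.18 without SAMR1 replicate 3), Dgkk from -4.51 to 4.78 (4.78 without SAMR1 replicate 1, which held most of its counts) and Ddx3y from -0.06 to 0.09 (0.09 without SAMP8 replicate 3, 0.01 without SAMP8 replicate 4 and 0.05 without SAMR1 replicate 3), and Ddx3y was at 0.03 with no filter and 0.04 with limma voom. Depth limits genes under about 1 CPM, where 1965442 counts in the shallowest library give few reads.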
